A study of Mus musculus with 8 samples.

Results

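Akr1c14 encodes an aldo-keto reductase of the AKR1C subfamily, and it is 1 of 1931 genes in the authors' deposited table. It was taken by its gene name, and it had been picked because its level differed between the groups of these same kidneys, so that difference is described here and not tested. The data are RNA-seq of kidneys from MRL-lpr mice, a lupus-prone strain with a mutation in the death receptor gene Fas, which both groups carry. Of the 8 mice, 4 received propionate at 200 mM in their drinking water over 6 weeks and 4 were controls, and the kidneys are labelled as coming from mice aged 12 weeks. The labels give no sex, litter or cage, and they do not say what the controls drank. The study asks how a fatty acid made by gut bacteria acts in lupus.

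Aldo-keto reductases use NADPH or NADH to turn carbonyl groups into alcohols. Members of the AKR1C subfamily reduce ketones on steroids, prostaglandins and other small molecules, and in mouse their genes form a cluster of close relatives. Akr1c14 is a 3-alpha-hydroxysteroid dehydrogenase, which acts on dihydrotestosterone and on 5-alpha-reduced progesterone. Akr1c18, its neighbour, is the 20-alpha-hydroxysteroid dehydrogenase that inactivates progesterone. Kidney tubule cells express many such enzymes.

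The gene (ENSMUSG00000033715) lies on chromosome 13 from 4099011 to 4140688 on the plus strand in the table. The submitters' processing notes name mm10, which is GRCm38, but the table's coordinates do not match that build. In GENCODE M21 on GRCm38 the model Akr1c14-202 runs from 4049011 to 4090688, and which build the table follows was not settled. That model has 12 exons and 3183 bases, of which 969 are coding, 513 precede the coding part and 1701 follow it. All 8 Akr1c genes of the cluster have a coding sequence of 969 bases in that annotation. Aligned over that length, Akr1c14 was 76.0% identical to Akr1c18. Of the other 7 genes Akr1c6 was the closest, at 76.4%, and Akr1c12 the most distant, at 72.3%. The 150 coding bases where Akr1c14 and Akr1c18 are most alike, coding bases 422 to 571 in both, are shown because reads of 150 bases had to tell these copies apart. The capitals mark the 14 bases at which they differ, so that 90.7% are identical.
Akr1c14: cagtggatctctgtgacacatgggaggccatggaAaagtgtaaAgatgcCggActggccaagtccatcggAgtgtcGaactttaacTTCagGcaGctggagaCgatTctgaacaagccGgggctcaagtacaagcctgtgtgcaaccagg
Akr1c18: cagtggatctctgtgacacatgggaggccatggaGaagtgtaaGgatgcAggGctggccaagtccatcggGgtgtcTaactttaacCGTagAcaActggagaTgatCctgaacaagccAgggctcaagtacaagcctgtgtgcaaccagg

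Exact sharing of read-length sequence with other transcripts was small for both genes. Of 3034 different words of 150 bases in the protein-coding Akr1c14 transcripts, 85 (2.80%) also occurred in a transcript of another gene, and that gene was the pseudogene Gm18857 for all of them. None of the 1205 words of this length in Akr1c18 occurred elsewhere. At 50 bases the shares were 5.90% for Akr1c14 and 0.581% for Akr1c18. These transcripts follow the C57BL/6J reference and not MRL-lpr, and no source at hand says how the authors treated shared reads.

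The start regions of both genes are shown because the kidneys with lower levels were the same for both, as given below. They are RefSeq windows on GRCm38.p6 of 250 bases before and 50 after the annotated start, chr13:4059341-4059640 on the plus strand for Akr1c14 and chr13:4150597-4150896 on the minus strand for Akr1c18. The Akr1c14 window belongs to a start inside Akr1c14-202, downstream of that model's first base.
Akr1c14: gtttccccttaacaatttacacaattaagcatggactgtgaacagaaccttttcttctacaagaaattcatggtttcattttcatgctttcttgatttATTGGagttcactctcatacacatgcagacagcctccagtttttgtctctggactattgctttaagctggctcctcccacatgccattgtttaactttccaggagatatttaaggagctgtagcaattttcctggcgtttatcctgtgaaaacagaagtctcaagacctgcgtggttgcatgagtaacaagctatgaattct
Akr1c18: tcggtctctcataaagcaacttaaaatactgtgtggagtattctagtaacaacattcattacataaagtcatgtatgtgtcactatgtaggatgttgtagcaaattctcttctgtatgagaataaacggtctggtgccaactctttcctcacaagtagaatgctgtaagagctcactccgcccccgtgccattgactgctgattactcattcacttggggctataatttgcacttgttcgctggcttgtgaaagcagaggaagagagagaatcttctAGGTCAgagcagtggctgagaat
The capitals mark matches, on either strand, to 6 short motifs, of which none overlapped another here. The initiation motif TATAAA, the steroid receptor core TGTTCT, the HNF1 core GTTAAT and the antioxidant response core TGACNNNGC had no match in either window, and 13.6%, 19.0%, 7.10% and 12.4% of all promoter windows hold them in that order. CCAAT matched in Akr1c14, on the minus strand, and 37.4% of all 32851 promoter windows of the same length hold it. AGGTCA, the core bound by many nuclear receptors, matched in Akr1c18, and 16.3% of windows hold it. A match is a matter of letters, and its absence from a window says nothing of a factor. Of the 8 Akr1c genes, 7 had such a window.

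Akr1c14 was lower in every propionate kidney than in any control kidney. Its level was 14.9, 10.05, 14.7 and 17.4 FPKM in propionate replicates 1 to 4, against 28.03, 39.5, 30.1 and 37.8 FPKM in control replicates 1 to 4. The groups did not overlap, which held for 47.6% of all listed genes, with a gap between propionate replicate 4 at 17.4 FPKM and control replicate 1 at 28.03 FPKM. Propionate replicate 2 was the lowest of the 8 kidneys and control replicate 2 the highest. On the scaled counts (counts divided by 1 factor per library) the values were 1188, 784, 1175 and 1384 with propionate, against 2227, 3096, 2411 and 2976 in controls. FPKM and scaled counts give the same order within the propionate group and within the control group.

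Mean scaled counts were 1132 ± 251 in propionate kidneys and 2678 ± 424 in control kidneys (SD, n = 4 each). The propionate mean was 42.3% of the control mean. The log2 fold change from edgeR was -1.28 ± 0.16 (SE), a descriptive value because the gene was chosen on this contrast. Leaving out any 1 library gave values from -1.37 (without propionate replicate 4) to -1.14 (without propionate replicate 2). The values rest on 801 to 1396 reads in propionate libraries and 2325 to 3323 reads in control libraries. Counting error at that depth is 2.68% to 3.53% with propionate and 1.73% to 2.07% in controls. Spread between mice was larger, with a coefficient of variation of 22.2% in propionate kidneys and 15.8% in control kidneys.

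**Figure D1:**
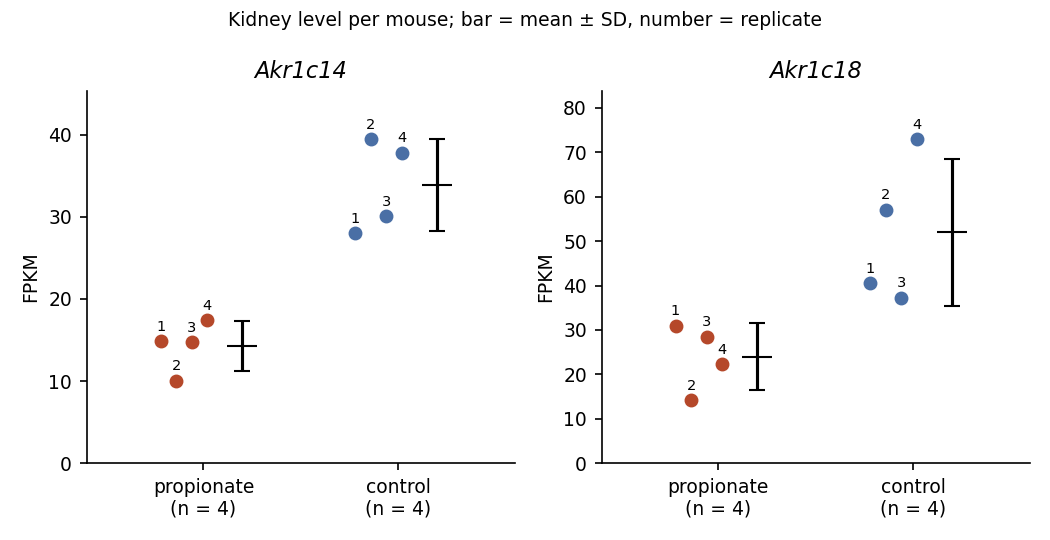
Level of Akr1c14 and of its neighbour Akr1c18 in each kidney, in FPKM, with the replicate number beside each point and the mean ± SD of 4 mice beside each group. For both genes all 4 propionate kidneys lie below all 4 control kidneys, at up to 17.4 against 28.03 FPKM and more for Akr1c14, and propionate replicate 2 is the lowest.

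Among the listed genes Akr1c14 was of moderate level. By mean FPKM it ranked 602 of 1931 in propionate kidneys and 299 of 1931 in control kidneys, where the median listed gene had 5.78 FPKM with propionate and 5.90 FPKM in controls. By deposited log2 fold change it ranked 51 from the lowest among 1664 listed protein-coding genes. The genes just beside it in that order had few reads. Amy1 (salivary amylase) averaged 41.6 and 100.1 scaled counts in propionate and control kidneys, Nat8f5 71.9 and 171, Trem2 (a myeloid receptor) 30.1 and 70.8, and Cdh20 (a cadherin) 9.99 and 22.8. Ptpn5, a tyrosine phosphatase, had 11.7 with propionate and 27.95 in controls, and Rab7b, of endosomal transport, had 21.2 with propionate and 49.1 in controls. The SE of the log2 fold change was 0.27 to 0.58 for these 6 genes, against 0.16 for Akr1c14. In Amy1 and Trem2 the groups overlapped.

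Among 705 genes averaging 1000 scaled counts or more, a limit set after the values were seen, Akr1c14 had the lowest deposited log2 fold change (-1.24). The next was Akr1c18, at -1.11. Behind them came Rnf24 at -0.84 and Pck1, the gluconeogenic enzyme, at -0.82. These are values from the authors' deposited table.

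Akr1c18, the progesterone-inactivating neighbour, was lower in propionate kidneys as well. It had 30.97, 14.2, 28.5 and 22.2 FPKM in propionate replicates 1 to 4, against 40.5, 57.0, 37.3 and 73.0 FPKM in control replicates 1 to 4. Its groups did not overlap, and propionate replicate 2 was the lowest, as for Akr1c14. Mean scaled counts were 710 ± 227 in propionate kidneys and 1530 ± 474 in control kidneys (SD, n = 4 each). Its log2 fold change was -1.14 ± 0.26 (SE), and edgeR put its adjusted p, taken over all tested genes of the table, at 0.0216. The call was lost without propionate replicate 4 (-1.08, edgeR adjusted p = 0.051). In the authors' deposited table it missed the threshold of 0.05 (adjusted p = 0.0538).

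Per length, Akr1c14 was the less abundant of the pair in each of the 8 kidneys. The FPKM ratio of Akr1c14 to Akr1c18 was 0.480, 0.707, 0.517 and 0.782 in propionate kidneys, against 0.692, 0.692, 0.807 and 0.518 in control kidneys. These ratios overlapped between groups. The summed FPKM was 45.8, 24.3, 43.2 and 39.6 with propionate, against 68.5, 96.5, 67.4 and 110.8 in controls.

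Within 1 Mb of Akr1c14 the table lists 3 other genes, and all had a negative deposited log2 fold change. Akr1c18 lies on the minus strand, so that the genes point toward each other, with 41.9 kb between their 3' ends. Gm47905, an unconfirmed transcript between them, had 1, 2, 2 and 0 reads in propionate libraries and 4, 7, 6 and 4 in control libraries. That is too few for the expression filter. Gm47951, a processed pseudogene, had 36, 19, 10 and 8 reads with propionate, against 24, 48, 69 and 36 in controls. Its groups overlapped (log2 fold change -1.38 ± 0.49, SE, edgeR adjusted p = 0.0398 over the listed genes). RefSeq on GRCm38.p6 places 17 other protein-coding genes within 1 Mb, of which Akr1c18 is listed, and the other 16 are not analysed here. Among those are the aldo-keto reductase genes Akr1c6, Akr1c12, Akr1c13, Akr1c19, Akr1c20, Akr1c21 and Akr1e1, so nothing is known here of the rest of the cluster.

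**Figure D2:**
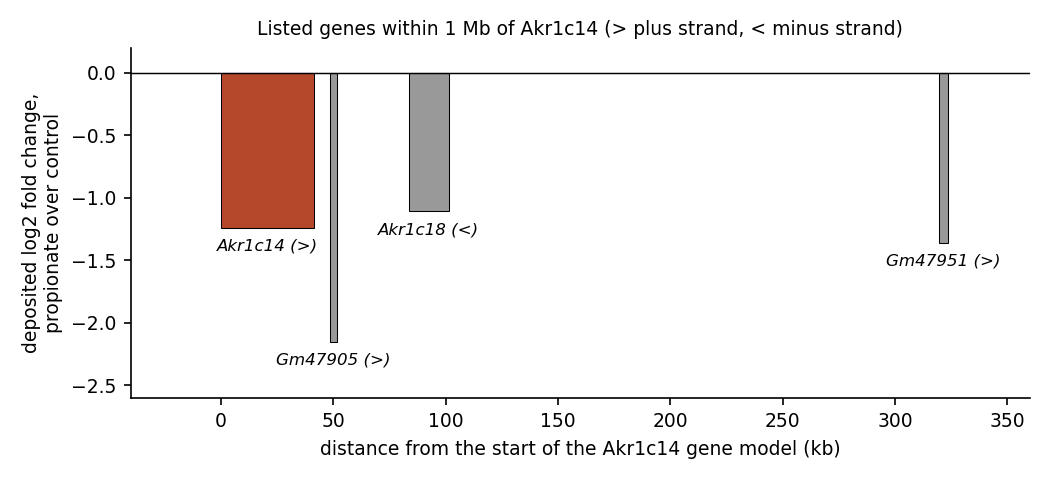
Listed genes within 1 Mb of Akr1c14, drawn to scale by distance from the start of its gene model (kb), with the deposited log2 fold change of propionate over control as height. All 4 bars point down. Akr1c14 (-1.24) and Akr1c18 (-1.11) carry at least 422 reads in each library, while Gm47905 has 7 or fewer.

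The other listed aldo-keto reductases differed less between the groups. The list had 18 symbols, of which 5 are in the table, and all 4 besides Akr1c14 could be tested. By edgeR Akr1c18 and Akr1d1 were lower and the other 2 did not pass, where 67.9% of all tested genes passed and 41.9% were lower. Akr1d1, the steroid 5-beta-reductase, averaged 471 ± 32.5 scaled counts in propionate kidneys and 577 ± 65.8 in control kidneys (SD, n = 4 each), with overlapping groups. Akr1a1, an aldehyde reductase that serves ascorbate synthesis, stood at 0.15 ± 0.06 (SE, edgeR adjusted p = 0.0508) on the log2 scale. Akr7a5, which reduces aldehydes such as succinic semialdehyde, stood at 0.20 ± 0.08 (SE, edgeR adjusted p = 0.0551). Both lay near the threshold, and of 14 alternatives 5 called Akr1a1 higher and 6 called Akr7a5 higher. With the authors' size factors, for instance, the edgeR adjusted p was 0.0429 for Akr1a1 and 0.044 for Akr7a5. At 537 ± 46.1 FPKM in propionate kidneys and 470 ± 26.5 FPKM in control kidneys (SD, n = 4 each), Akr1a1 was the most abundant of the 5 listed members.

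Steroid hormone enzymes were mixed in direction too. Of 45 symbols 7 are in the table and 6 could be tested. Srd5a1, the 5-alpha-reductase that makes substrates of 3-alpha-reduction, averaged 203 ± 28.9 scaled counts in propionate kidneys and 288 ± 58.7 in control kidneys (SD, n = 4 each). Its log2 fold change was -0.55 ± 0.17 (SE). Hsd17b7, of oestradiol and cholesterol synthesis, had -0.35 ± 0.10 (SE) with groups that did not overlap, and the retinol dehydrogenase Rdh16 had -0.29 ± 0.07 (SE). Higher were Hsd3b2, of the 3-beta-hydroxysteroid dehydrogenases, at 0.65 ± 0.24 (SE), and the mitochondrial dehydrogenase Hsd17b10, at 0.17 ± 0.06 (SE). Hsd17b14 did not pass (0.21 ± 0.10, SE, edgeR adjusted p = 0.0691). Dhrs9 was too low to test, at 4.58 ± 1.78 scaled counts with propionate and 13.6 ± 4.83 in controls (SD, n = 4 each). Hsd3b2 belongs to a family of similar genes, and the sharing of its reads with them was not tested.

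Over both lists, 7 of 10 tested genes passed by edgeR, 2 of them higher and 5 lower. The background was 67.9% of all 1792 tested genes, 25.9% higher and 41.9% lower, in a table that holds only genes already selected for a difference. The edgeR adjusted p-values span only these genes, selected on the same libraries. They are therefore no error rate, and a call here only places a gene among the listed ones. Of the edgeR calls 38.2% were higher, against 53.4% with the authors' size factors and 52.4% with library totals alone, so the split depends on the scaling. Both counts moved with single libraries. Without control replicate 3, for example, 5 of the list genes and 8.2% of all tested genes were called, and without propionate replicate 4 these were 1 and 11.4%. None of the 11 had an adjusted p under 0.05 in the authors' deposited table, where 8.13% of all listed genes did, while the unadjusted p was at most 0.05 for all 11, as for every listed gene. DESeq2 run on the listed genes, with no filter on low counts, called 10 of the 11, all but Hsd17b14, and 69.1% of all 1931 listed genes. The groups did not overlap in 3 of the 11 (Akr1c18, Hsd17b7 and Dhrs9), against 47.6% of all listed genes. The median log2 fold change of the 10 was -0.07, against 0.11 over all tested genes.

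Several of these edgeR calls ended with 1 library left out, where 8.2% to 69.8% of all tested genes were called. The log2 fold changes of the genes named here kept their sign in each of these omissions. The call of Akr1d1 ended without propionate replicate 3 or 4 or control replicate 2 (edgeR adjusted p = 0.0599, 0.0655 and 0.0595). The call of Hsd17b7 ended without propionate replicate 3 or 4 or control replicate 2 or 3 (edgeR adjusted p = 0.0565, 0.051, 0.0522 and 0.0606). For Srd5a1 it ended without propionate replicate 3 or 4 or control replicate 1, 2 or 4 (edgeR adjusted p from 0.0542 to 0.072). Hsd3b2 lost its call without any 1 of 6 libraries, all but propionate replicates 1 and 2 (edgeR adjusted p from 0.0502 to 0.092). Hsd17b10 lost it without any 1 of 7, all but propionate replicate 1 (edgeR adjusted p from 0.0558 to 0.0973). With a gene length trend removed, Hsd17b10 was at -0.02, and the calls of Hsd3b2 (edgeR adjusted p = 0.0657) and Rdh16 (-0.17, edgeR adjusted p = 0.1) ended.

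**Figure D3:**
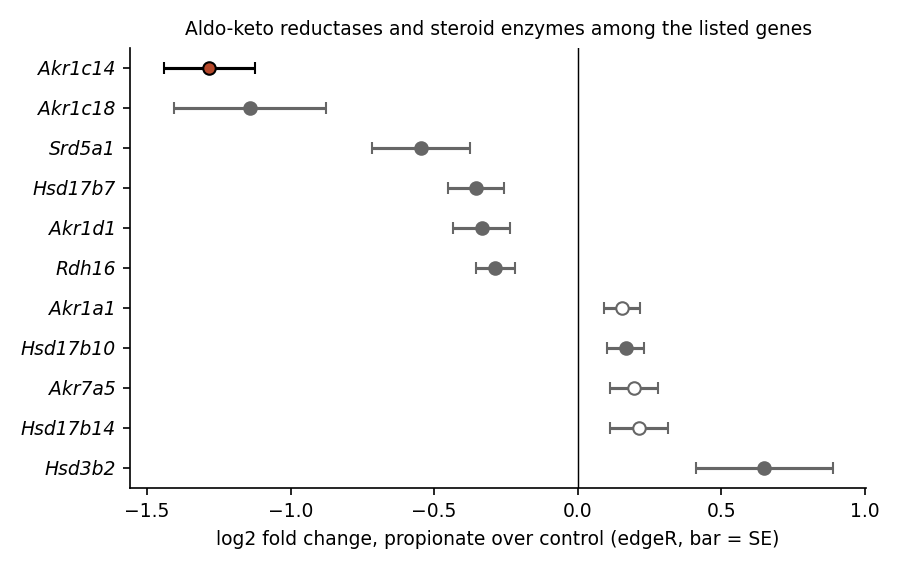
Log2 fold change of propionate over control (edgeR, bar = SE) for Akr1c14 and the 10 testable aldo-keto reductases and steroid enzymes, from the lowest at the top. Filled points are edgeR calls and open points are not. Akr1c14 (-1.28) and Akr1c18 (-1.14) stand apart at the low end, while the other 9 lie between -0.55 and 0.65.

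Which genes followed Akr1c14 from mouse to mouse was asked within groups, with each group's mean removed. The measure was the Pearson correlation of the 8 deviations of log2(scaled count + 1), which carry 6 degrees of freedom. The deviations of Akr1c14 were 0.10, -0.50, 0.08 and 0.32 in propionate replicates 1 to 4, and -0.25, 0.22, -0.14 and 0.17 in control replicates 1 to 4. Propionate replicate 2 and control replicate 1 lay farthest from the median. Of 1632 other genes with a mean of at least 50 scaled counts, 7 (0.429%) had a correlation of at least 0.9 and 3 had one of -0.9 or lower. The count of 7 was unstable, at 8 to 42 with any 1 library left out and 64 with the replicate number as a block. The middle 50% of genes lay between -0.27 and 0.45.

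Whether any single gene stood out from the table cannot be told by this measure. In an exact permutation test of the libraries within groups (576 arrangements, two-sided), 75 genes, 4.60%, had an unadjusted p under 0.05. After adjustment over the 1632 genes the smallest p of this exact test was 0.872. The smallest unadjusted p these arrangements can give is 0.0017, so no gene alone could have passed after adjustment over 1632 genes. The genes named next come from the 784 protein-coding genes eligible by the naming rule, so not every gene beyond 0.9 or -0.9 is named. They are therefore the eligible genes whose pattern was most like, or most opposed to, that of Akr1c14 in these 8 kidneys, and no more.

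Highest was Txnl4a, a protein of the spliceosome, at a correlation of 0.95 (Spearman rho 0.95). It had 535, 474, 540 and 581 scaled counts in propionate kidneys and 449, 476, 435 and 473 in control kidneys. Thus it too was lowest with propionate in replicate 2, while its group mean was higher with propionate. Tmco3, a transmembrane protein, came next at 0.95 (rho 0.88), with 1282, 1069, 1215 and 1296 scaled counts in propionate kidneys against 1276, 1487, 1365 and 1531 in control kidneys. Srpx2, a secreted sushi-repeat protein, and Rnf183, a ubiquitin ligase, both had 0.93 (rho 0.83). H6pd, which makes NADPH inside the endoplasmic reticulum, had 0.91 (rho 0.95).

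The other 5 of the 10 highest were Pxn, an adaptor of focal adhesions (0.91, rho 0.60), the sorting receptor M6pr (0.90, rho 0.90), the peptidase inhibitor Serpinb8 (0.89, rho 0.83), the organic anion transporter Slc22a19 (0.89, rho 0.83) and the trafficking adaptor Tom1l2 (0.89, rho 0.95). These 10 did not all share the direction of the group difference of Akr1c14. Mean scaled counts were higher with propionate in 7 of them and lower in Tmco3, M6pr and Slc22a19. Of all 1632 genes 926 were higher with propionate. Rnf183 had the smallest adjusted p of the 10 in the authors' deposited table (0.00727), with 898 ± 127 scaled counts in propionate kidneys and 618 ± 75.9 in control kidneys (SD, n = 4 each). Without the pair farthest out, propionate replicate 2 and control replicate 1, the correlation was 0.98 for Txnl4a, 0.85 for Tmco3, 0.81 for Srpx2, 0.81 for Rnf183, 0.83 for H6pd and 0.88 for Tom1l2. It was 0.76 for M6pr, 0.51 for Pxn, 0.48 for Serpinb8 and 0.52 for Slc22a19, so these rested more on that pair of kidneys.

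At the other end, the lowest eligible gene was Casr, the calcium-sensing receptor, with a correlation of -0.92 (rho -0.79). It had 816, 997, 746 and 695 scaled counts in propionate kidneys, against 1170, 1065, 1097 and 1012 in control kidneys. Its highest propionate kidney was replicate 2, where Akr1c14 was lowest. Bud13, of the spliceosome, had -0.87 (rho -0.86), Stox2 -0.87 (rho -0.88), Gpr155 -0.86 (rho -0.86) and Grk3, a kinase of G protein-coupled receptors, -0.86 (rho -0.93). Without propionate replicate 2 and control replicate 1 these became -0.65 for Casr, -0.47 for Bud13, -0.83 for Stox2, -0.66 for Gpr155 and -0.95 for Grk3.

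**Figure D4:**
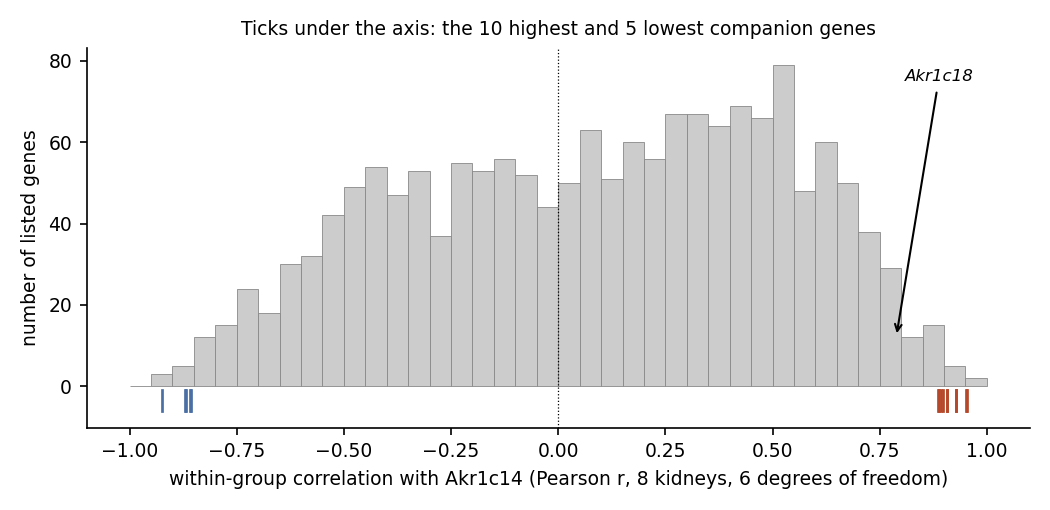
Distribution over 1632 listed genes of the within-group correlation with Akr1c14, with ticks below the axis for the 10 highest and 5 lowest eligible protein-coding genes and an arrow for Akr1c18. The bulk lies between -0.27 and 0.45, the ticks reach 0.95 and -0.92, and Akr1c18 stands at 0.79.

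Akr1c18 ranked 42 of the 1632 in this order, at a within-group correlation of 0.79 (rho 0.60). The correlation was 0.76 among propionate kidneys and 0.86 among control kidneys. The exact permutation p was 0.0538 for Pearson's r and 0.177 for rho, and 0.559 and 0.477 when adjusted over the 11 aldo-keto reductase and steroid enzyme genes, so the relation did not pass. Without propionate replicate 2 and control replicate 1 it was 0.38. Of those 11 genes 9 had a positive correlation, from 0.01 to 0.79, and the median of the 11 was 0.31. The median over all 1632 genes was 0.13, so most of the 1632 were positive as well. Dhrs9, at 0.01, is counted in the 11 but was too low in level to be among the 1632. Whether the 11 differ from other listed genes in this was not tested. Of the 11, Hsd17b7 had the lowest correlation, -0.66, with -0.96 among propionate kidneys and 0.52 among control kidneys. Hsd3b2 had 0.70, with 0.91 among propionate kidneys and 0.04 among control kidneys. Nat8f5, which had nearly the fold change of Akr1c14, ranked 41, just ahead of Akr1c18, at 0.79.

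**Figure D5:**
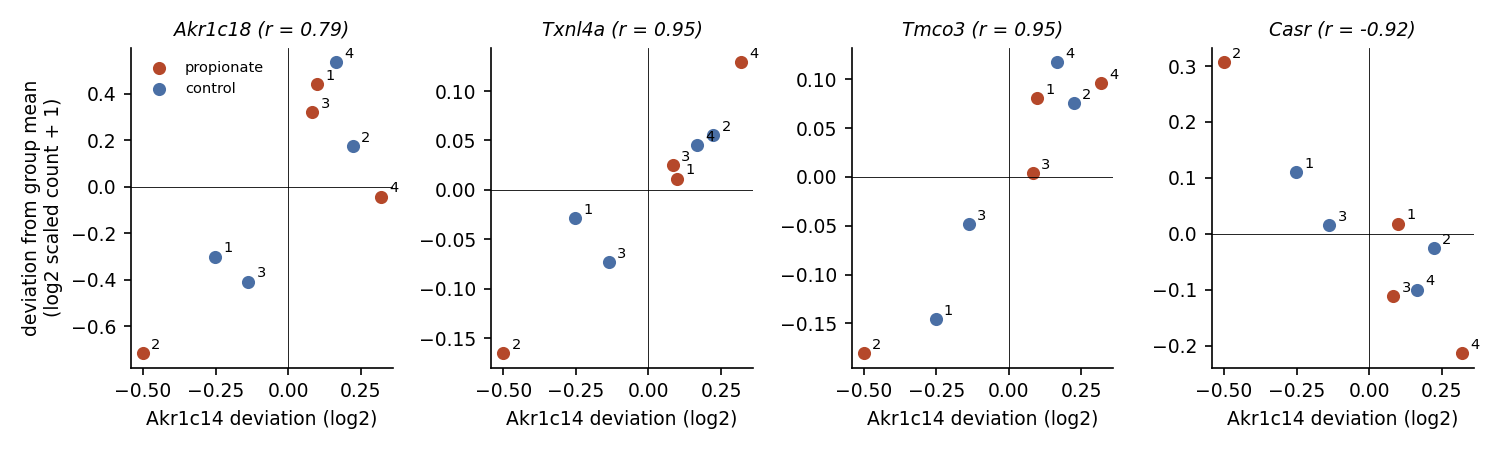
Deviation of each kidney from its group mean, on the log2(scaled count + 1) scale, for Akr1c14 on the horizontal axis and Akr1c18, Txnl4a, Tmco3 or Casr on the vertical axis, with replicate numbers beside the points. Propionate replicate 2, at -0.50 for Akr1c14, is the extreme point in each panel, and the correlations are 0.79, 0.95, 0.95 and -0.92.

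Genes lower with propionate did not as a rule follow Akr1c14 within groups. The median within-group correlation was -0.23 over 706 genes that were lower with propionate and 0.32 over 926 that were higher. Genes are not independent replicates and these values share the same 8 libraries and their scaling, so they are given as a description.

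Across the series, the libraries held 24608712 to 26711127 assigned reads in the propionate group and 20005328 to 26002214 in the control group, and 13.4% to 15.1% of reads fell on listed genes. Proximal tubule markers are present at high levels, with 10 of 19 listed and a summed level of 2744 to 3309 FPKM in propionate kidneys and 2680 to 3299 FPKM in control kidneys. Of 9 adrenal gland markers 0 are listed, so RNA from that steroid-making tissue was not measured here. Of 17 markers of endothelium, stroma, blood and immune cells the myeloid genes Cd68 and Itgam are listed, at a summed 3.37 to 8.16 FPKM in propionate kidneys and 5.64 to 12.6 FPKM in control kidneys. Xist, the RNA of the inactive X chromosome, was read in all 8 libraries, at 9.26, 9.35, 7.34 and 5.01 FPKM with propionate against 13.3, 12.9, 13.7 and 9.98 FPKM in controls. Its within-group correlation with Akr1c14 was -0.67. The part of these in the level of Akr1c14 was not tested. In whole kidney, fewer cells of a type and less RNA per cell cannot be told apart.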

How the data were processed

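RNA-seq counts of 8 kidneys (4 propionate, 4 control) were analysed from 1 table. Libraries were grouped by their treatment label and columns matched by sample identifier. Per the file headers, the authors deposited raw read counts, a scaled signal (each count over its library's size factor), group means and FPKM. The deposited columns also hold the authors' log2 fold changes with raw and adjusted p-values. The submitters' processing notes name DESeq2 and mm10, and no source at hand names an aligner or counter. No deposited unadjusted p exceeds 0.05, so the listed genes had been selected on these libraries, and genes outside the table are not analysed here. The deposited table holds log2 fold changes in both directions, and propionate over control is used.

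Each library's total was computed from its counts, gene lengths and FPKM. edgeR 4.0.16 (R 4.3.3) ran its quasi-likelihood test on the counts, using those totals, TMM scaling and its own low-count filter, without covariates, adjusted by Benjamini-Hochberg over the 1792 genes tested. DESeq2 1.42.0 was an alternative. TMM takes most genes as unchanged, which a selected table need not meet. The steps were tested on simulated data. P-values measure the spread between these samples only. Alternatives tried were other scalings, no filter, a gene length trend, the replicate number as a block, other pseudocounts, Spearman's rho and leaving out each library.

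Genes were named by rule: Akr1c14, listed aldo-keto reductases and steroid enzymes, listed genes within 1 Mb, the 3 protein-coding genes on either side by fold change, and the 10 highest and 5 lowest within-group correlations among protein-coding genes averaging 50 scaled counts or more, with the same sign in both groups and no provisional name. Rnf24, Pck1 and Xist were named after their values were seen. The members and lists were chosen with earlier results of these data known.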

Additional observations from a re-analysis of the deposited data

Results flagged for a closer look

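Of 70 groups of 4 kidneys examined for the genes named above, 1 had a kidney set far apart from the rest. Trem2, a myeloid receptor with nearly the fold change of Akr1c14, had 58.9 scaled counts in propionate replicate 1, against 17.8 to 23.0 in the other 3 propionate kidneys. Chance sets apart about 1 in 20 such groups. No kidney was set apart in this way for Akr1c14 or Akr1c18.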

How the results depend on the processing

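The log2 fold change of Akr1c14 kept its sign and moved by less than the SD between kidneys (0.30) in all 16 alternatives, from -1.37 to -1.14 with 1 library left out, and it was -1.29 with the replicate number as a block and -1.20 on log2(FPKM + 1). The count of listed genes called, 1216, became 613 with a gene length trend removed and ranged from 148 to 1262 with 1 library left out (197 and 206 without propionate replicates 3 and 4, and 571, 339, 148 and 568 without control replicates 1 to 4). With the length trend removed, the tested genes had a median log2 fold change of 0.01, against 0.11 without that step. The count of aldo-keto reductase and steroid enzyme genes, 7, became 4 with the length trend removed, where Hsd17b10 turned to -0.016, and ranged from 1 to 10 with 1 library left out (2 and 1 without propionate replicates 3 and 4). The count of genes with a within-group correlation of at least 0.9, 7, became 4 on log2(FPKM + 0.1) and 64 with the replicate block, and ranged from 8 to 42 with 1 library left out. Fewer degrees of freedom remain in the block and in each such omission. The causes of the other changes were not tested. Under every alternative tried the 15 companion genes and Akr1c18 kept the sign of their correlation. Akr1c18 lay between 0.53 and 0.94, and at 0.38 without both propionate replicate 2 and control replicate 1. The replicate numbers were not taken as pairs, and whether they mark pairs was not tested. Deviations of same-numbered kidneys correlated at 0.17, 0.36, 0.02 and 0.21. Propionate replicates 1, 2 and 4 each correlated best with the control of the same number, replicate 1 about equally with control replicate 3 (0.17). Propionate replicate 3 correlated best with control replicate 1 (0.44). With the block the counts of calls were 1273 and 7, the call of Hsd3b2 ended (edgeR adjusted p = 0.0579) and Akr7a5 gained one (edgeR adjusted p = 0.0384). Depth did not limit Akr1c14, at 801 reads or more, but did limit Dhrs9 and Gm47905.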

Other observations

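Other lists with a bearing on steroid and redox enzymes gave the following edgeR counts, beside a background of 67.9% called, 25.9% higher and 41.9% lower. Of 20 targets of Nrf2, the activator of antioxidant genes, 6 are in the table, of which 5 were lower and 1, Gsta4, did not pass. In the authors' deposited table Gclc, the catalytic subunit of glutathione synthesis, and malic enzyme Me1 passed (adjusted p = 0.0337 and 0.0473). Gclc had 3868 mean scaled counts in propionate kidneys and 4560 in control kidneys, and its within-group correlation with Akr1c14 was 0.47. That was the only positive correlation among the 6 listed targets. For Gclc it was 0.86 among propionate kidneys and -0.17 among control kidneys, and -0.32 without propionate replicate 2 and control replicate 1. The list's correlations ranged from -0.43 to 0.47.

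Scnn1a, a subunit of the epithelial sodium channel and a target of steroid hormones, was lower. Its log2 fold change was -0.28 ± 0.06 (SE), and its within-group correlation with Akr1c14 was 0.81, or 0.11 without propionate replicate 2 and control replicate 1. It did not pass in the authors' deposited table (adjusted p = 0.0624). Of 17 genes known to differ by sex in mouse kidney or to mark the sex chromosomes, 4 are listed, and Slc7a12, Cyp4a14, Prlr and Xist were all lower. Their log2 fold changes were -0.52, -0.51, -0.38 and -0.72, and their within-group correlations with Akr1c14 were 0.61, -0.60, 0.10 and -0.67. Of 12 markers of other kidney segments 3 are listed, and 1 passed. It was renin, Ren1, with 2868 mean scaled counts in propionate kidneys and 1988 in control kidneys. Its groups overlapped, and it did not pass in the authors' deposited table (adjusted p = 0.132). Its within-group correlation with Akr1c14 was 0.72 (0.96 among propionate kidneys and 0.87 among control kidneys). The other 2, Aqp3 and Slc4a1, had within-group correlations of -0.02 and -0.09. Of the 10 listed proximal tubule markers 3 were higher and 5 lower.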
